A study of Homo sapiens with 3 samples.

Results

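The genes that encode the DNA-binding and co-factor arm of the Hippo pathway were examined as chromatin loci in 786-O, a line derived from a human clear cell renal carcinoma and known to lack active VHL tumour suppressor. The 7 genes were the transcription factors TEAD1, TEAD2, TEAD3 and TEAD4, the co-activators YAP1 and WWTR1 (the gene of the protein TAZ), and VGLL4. Members were the TEAD and H3K27ac regions whose summit lay within 50 kb of 1 listed start position per gene, in either direction. That rule gave 16 of 35241 TEAD regions and 19 of 52667 H3K27ac regions. It uses position only, so enrichment values played no part in the rule. The series held 3 libraries of the same line, with no treatment named for any of them: chromatin precipitated with an antibody to TEAD, chromatin precipitated with an antibody to H3K27ac, and input chromatin. Each group was 1 library, so differences had no replicate check and no p-value was computed.

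TEAD proteins bind DNA through a conserved TEA domain and activate transcription poorly on their own. They recruit YAP or TAZ, which the LATS kinases keep out of the nucleus when the Hippo pathway is on. VGLL4 binds TEAD through its TONDU motifs, competes with YAP and represses TEAD targets. H3K27ac, acetylation of lysine 27 on histone H3, marks active promoters and enhancers. The names of the TEAD regions in the deposited list carry TEF1 and TEF3. RefSeq's gene table lists TEF-1 as an older symbol of TEAD1 and TEF3 as an older symbol of TEAD4. The sources used here do not say which TEAD proteins the antibody recognised.

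The promoter sequences of 3 members are shown because TEAD regions covered the listed starts of YAP1 and TEAD3, while no TEAD region lay within 50 kb of that of TEAD2. Each runs from 250 bases before to 50 bases after a gene's start in RefSeq, read 5′ to 3′ on the gene's own strand. Capitals mark GGAATG, or CATTCC where it lies on the other strand, the core hexamer that TEAD proteins recognise. The windows are in the GRCh38.p14 build and were not converted to hg19: chr11:102110197-102110496 on the plus strand for YAP1, chr6:35497030-35497329 on the minus strand for TEAD3 and chr19:49362367-49362666 on the minus strand for TEAD2.
YAP1: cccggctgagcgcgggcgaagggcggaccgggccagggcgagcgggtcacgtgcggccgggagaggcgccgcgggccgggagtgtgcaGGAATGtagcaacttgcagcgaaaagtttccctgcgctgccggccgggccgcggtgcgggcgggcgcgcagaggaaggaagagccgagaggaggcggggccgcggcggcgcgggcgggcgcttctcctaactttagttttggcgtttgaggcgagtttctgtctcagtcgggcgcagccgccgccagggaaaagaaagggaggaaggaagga
TEAD3: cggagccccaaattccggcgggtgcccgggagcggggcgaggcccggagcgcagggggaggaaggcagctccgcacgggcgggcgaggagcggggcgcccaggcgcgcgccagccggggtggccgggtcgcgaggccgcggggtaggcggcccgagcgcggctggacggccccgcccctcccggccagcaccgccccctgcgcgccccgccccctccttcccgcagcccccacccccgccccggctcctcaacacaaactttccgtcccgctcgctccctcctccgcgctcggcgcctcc
TEAD2: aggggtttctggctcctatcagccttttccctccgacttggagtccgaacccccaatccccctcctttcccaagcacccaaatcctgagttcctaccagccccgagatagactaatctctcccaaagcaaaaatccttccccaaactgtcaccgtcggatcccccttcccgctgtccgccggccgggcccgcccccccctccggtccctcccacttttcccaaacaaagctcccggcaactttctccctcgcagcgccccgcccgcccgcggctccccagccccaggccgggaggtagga

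The YAP1 window held the core once, on the strand shown, with its first base 162 bases before the RefSeq start. The TEAD3 window and both TEAD2 windows in the table held none. WWTR1 had 2 windows and VGLL4 had 5, and none of these held it either. Among all entries, 14.0% of 35116 promoter windows held the core on at least 1 strand, so the match at YAP1 is a description of letters and not a called site. The promoters of TEAD1 and TEAD4 were not analysed here. The AP-1 site TGANTCA, which reads the same on both strands, was in none of the 11 windows of these 5 genes and in 7.71% of all windows. GC content was 81.3% in the TEAD3 window, 70.7% in the YAP1 window and 64.0% in the TEAD2 window shown, against a median of 58.7% over the table.

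At 6 of the 7 genes an H3K27ac region covered the listed start and held at least 1 TEAD region. TEAD2 was the exception. The share of gene starts in general that are covered in this way was not counted. The 6 of 7 is therefore not shown to be particular to these genes. Fold below is the authors' enrichment at a summit relative to background, and its interval is a 95% counting interval on the reads at the summit. TEAD fold in these 6 regions ran from 45.4 at TEAD4 down to 3.72 at TEAD3, and H3K27ac fold from 43.2 at YAP1 down to 10.8 at VGLL4. The H3K27ac regions over the 6 starts were 1896 to 4355 bp wide, against a median of 950 bp over the whole list. Of all H3K27ac regions 41.7% shared at least 1 bp with a TEAD region, and of the 12712 regions at least 1896 bp wide 74.5% did. A count of 6 of 6 therefore stands beside a high share in regions of such width. A TEAD region of at least 10-fold lay in 4 of the 6, at TEAD1, TEAD4, YAP1 and VGLL4, against 32.7% of the wide regions. With 6 regions the 95% Wilson interval on that share was 30.0 to 90.3%.

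**Figure D1:**
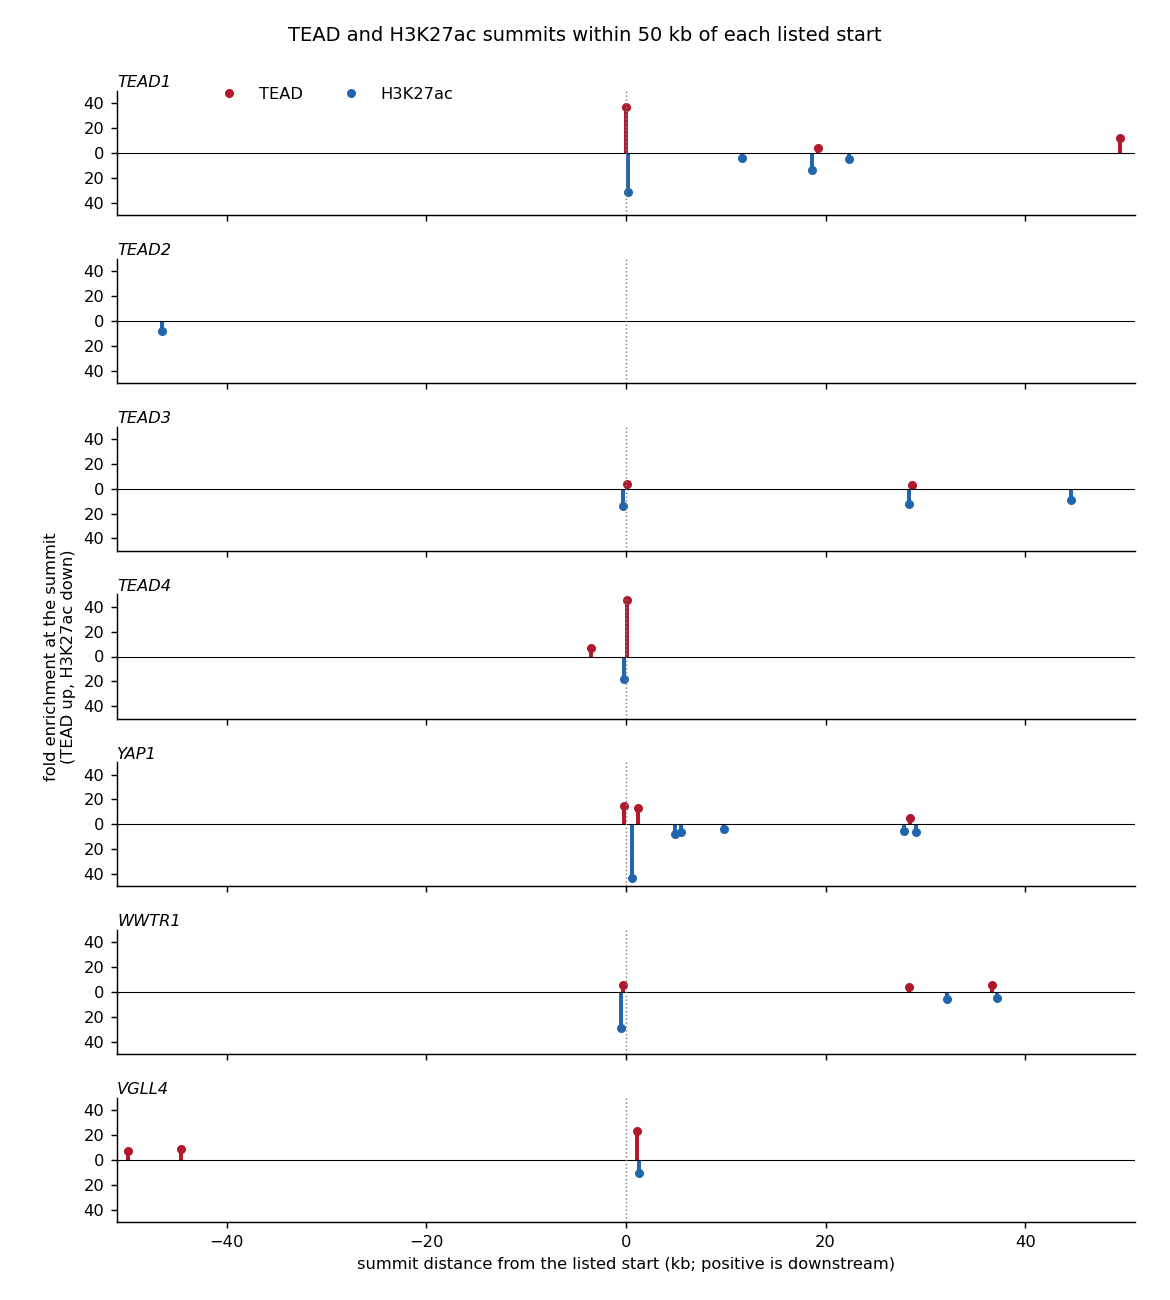
Summits of TEAD regions (red, upward) and H3K27ac regions (blue, downward) within 50 kb of the listed start of each gene, with distance in kb along the direction of transcription on the x axis and fold enrichment on the y axis. TEAD summits of at least 10-fold stood in H3K27ac regions at the starts of TEAD1, TEAD4, YAP1 and VGLL4, TEAD at the starts of WWTR1 and TEAD3 was 5.47- and 3.72-fold, and TEAD2 had 1 distant H3K27ac summit and no TEAD summit.

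TEAD4 held the strongest TEAD region of the set. TEAD4 encodes a TEAD protein best known for its part in trophectoderm formation in mouse embryos. The region ran from 3067948 to 3069300 on chromosome 12 (hg19), was 1353 bp wide and had its summit 104 bp downstream of the listed start. It had 173 reads at the summit over a recovered background of 2.83 reads, a fold of 45.4 (38.9 to 52.7), and ranked 458 in the TEAD list. The H3K27ac region around it, from 3067173 to 3070319, had 71 reads and a fold of 18.2 (14.3 to 22.9), rank 4733 of its list. It was the sole H3K27ac summit within 50 kb of the TEAD4 start. A second TEAD region, 3534 bp upstream, had a fold of 7.09 (4.73 to 10.3) and lay 2018 bp from the nearest H3K27ac region, so TEAD4 combined the highest TEAD value with a single block of acetylation.

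TEAD1, which encodes a widely expressed TEAD protein first studied as an activator of muscle and viral enhancers, had the next strongest TEAD region. It ran from 12695534 to 12696773 on chromosome 11, with the summit 10 bp downstream of the listed start. Its 140 reads over a background of 2.81 gave a fold of 37.0 (31.2 to 43.7), rank 822. The counting intervals of TEAD4 and TEAD1 overlapped, and the difference between them was not tested. The H3K27ac region over the TEAD1 start was the widest of the 6, from 12694885 to 12699239, at 30.9-fold (24.8 to 38.1) and rank 348. Downstream lay 3 more H3K27ac summits, at 11598, 18648 and 22305 bp, with folds of 3.85, 13.9 and 4.86. The 18648 bp region was 4307 bp wide and held a TEAD region of 4.20-fold (2.47 to 6.76). Another TEAD region lay 49554 bp downstream at 12.0-fold (8.22 to 17.0). It overlapped an H3K27ac region of 12.1-fold whose own summit, at 50509 bp, fell just beyond the 50 kb limit. TEAD1 thus had acetylation and TEAD at its start and again along the first 50 kb of the transcribed side, and no summit of either kind upstream.

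TEAD2 had no TEAD region within 50 kb. TEAD2 is known as a TEAD gene active early in mouse embryos. Its sole H3K27ac member, from 49911746 to 49912724 on chromosome 19, lay 46456 bp upstream with a fold of 7.85 (5.34 to 11.2). The nearest TEAD summit was 80618 bp upstream, in a TEAD region of 29.5-fold. That TEAD region overlapped an H3K27ac region of 17.0-fold, but the TEAD summit lay outside it. From the H3K27ac member at 46456 bp the nearest TEAD summit was 34162 bp away, on the far side from the TEAD2 start. The weakest TEAD region that passed the caller anywhere had 7 reads at the summit, and signal under the caller's threshold was not listed, so binding at TEAD2 was not detectable at this depth rather than shown to be absent.

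TEAD3, whose product is abundant in placenta, had acetylation at its start and the lowest TEAD folds of the set. The H3K27ac region over its start, from 35463780 to 35465675 on chromosome 6, had a fold of 13.7 (10.5 to 17.5). The TEAD region inside it, from 35464618 to 35465236, had its summit 111 bp downstream of the listed start, with 21 reads over a background of 4.91. Its fold of 3.72 (2.37 to 5.60) ranked 34028 of 35241. A second TEAD region 28668 bp downstream had the same 21 reads over a background of 7.02, the highest among the 16, and a fold of 2.74 (1.75 to 4.13). It lay in an H3K27ac region of 2649 bp and 12.1-fold. In RefSeq's gene order RPL10A is the next protein-coding gene on that side. Whether this pair of regions belongs to RPL10A or to TEAD3 was not tested. Another H3K27ac region, 44590 bp downstream at 9.16-fold, held no TEAD. Both TEAD regions within 50 kb of the TEAD3 start thus lay under acetylation of above-median fold but near the bottom of the TEAD list by fold. By reads they were not the weakest, since members at YAP1, WWTR1 and TEAD1 had 12 to 15 reads.

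YAP1 encodes the co-activator YAP, which supplies TEAD with a transactivation domain. Its start had the strongest acetylation of the set: the H3K27ac region from 101980223 to 101984311 on chromosome 11 had 115 reads and a fold of 43.2 (35.7 to 51.7), which ranked 11 of 52667. A pair of TEAD regions lay inside it. The upstream one, from 101980744 to 101981277, had its summit 194 bp before the listed start, with 65 reads and a fold of 14.6 (11.4 to 18.6). It reached from 449 bp before to 85 bp after the listed start, an extent that exceeds the promoter window printed above on both sides. The RefSeq start and the listed hg19 start were not matched base by base, so the summit and the core cannot be placed against each other exactly. The downstream one, from 101982100 to 101982846, had its summit at 1218 bp, with 33 reads and a fold of 12.9 (8.98 to 17.9). The H3K27ac summit, at 654 bp, lay between the 2 TEAD summits, 848 bp from the first and 564 bp from the second.

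Beyond the YAP1 promoter, 5 more H3K27ac summits lay downstream at 4896 to 29050 bp, with folds of 3.44 to 8.11. The last TEAD region, 28464 bp downstream, had 12 reads and a fold of 4.89 (2.71 to 8.25). It overlapped an H3K27ac region of 5.17-fold and lay between that summit and the next, at 27818 and 29050 bp. Apart from the TEAD summit at 194 bp, no summit of either list lay within 50 kb upstream of the YAP1 start. YAP1 thus had the most H3K27ac regions of the 7 genes, 6, and 3 TEAD regions, all 3 of them acetylated.

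WWTR1 encodes TAZ, the paralogue of YAP. Its start had strong acetylation with weak TEAD. The H3K27ac region from 149374103 to 149377158 on chromosome 3 had 126 reads, the most of any H3K27ac member, and a fold of 29.0 (24.2 to 34.5), rank 528. The TEAD region inside it, from 149375904 to 149376777, had its summit 317 bp upstream of the listed start and 156 bp from the H3K27ac summit, with 21 reads and a fold of 5.47 (3.48 to 8.24). That was below the median TEAD fold of 7.14 over the whole list, although the interval includes the median. The counting intervals of the WWTR1 start and of each YAP1 start region did not overlap. Further TEAD regions lay 28409 bp downstream at 4.28-fold (2.37 to 7.23), 3223 bp from the nearest H3K27ac region, and 36728 bp downstream at 5.69-fold (3.72 to 8.35). The last touched an H3K27ac region of 4.59-fold but had its summit outside it. All 3 TEAD regions of WWTR1 were thus weak, with 12 to 24 reads.

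VGLL4, the antagonist, had a strong TEAD region at its listed start. The start region of H3K27ac, from 11759267 to 11762388 on chromosome 3, had 63 reads over a recovered background of 4.94 and a fold of 10.8 (8.32 to 13.7). That fold was the lowest of the 6 starts, but its interval overlapped that of TEAD3, whose start region had 61 reads. Only 168 bp of it lay upstream of the listed start, with the rest inside the gene. The TEAD region in it, from 11760769 to 11761386, had its summit 1135 bp downstream of the start and 188 bp from the H3K27ac summit. It had 72 reads over a background of 2.10 and a fold of 23.5 (18.5 to 29.5), rank 2414. A pair of TEAD regions 44571 and 49937 bp upstream had folds of 8.89 (5.77 to 13.2) and 7.27 (4.58 to 11.0). They lay 44176 and 49607 bp from the nearest H3K27ac region, the farthest of the 16. The TEAD regions of VGLL4 were thus 1 strong one in acetylated chromatin and 2 of near-median fold with no called acetylation near them.

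**Figure D2:**
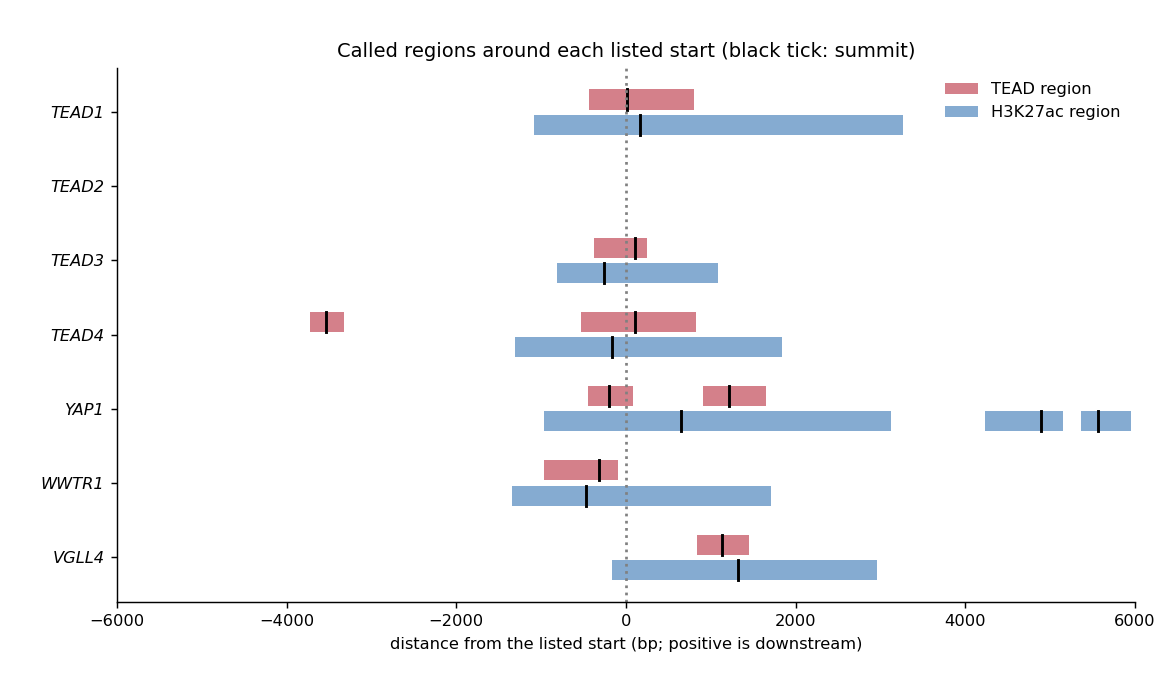
TEAD regions (red) and H3K27ac regions (blue) within 6 kb of each listed start, as bars from region start to end in bp along the direction of transcription, with black ticks at the summits. TEAD covered the start itself at TEAD1, TEAD3, TEAD4 and YAP1, ended 91 bp before it at WWTR1 and began 834 bp after it at VGLL4.

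The orders of the 2 profiles differed. By TEAD fold the strongest region at each start ran TEAD4, TEAD1, VGLL4, YAP1, WWTR1 and TEAD3. By H3K27ac fold the order was YAP1, TEAD1, WWTR1, TEAD4, TEAD3 and VGLL4. In the first order the intervals of TEAD1 and VGLL4, and those of YAP1 and WWTR1, did not overlap, while the other neighbours' intervals did. In the second, the intervals of WWTR1 and TEAD4 did not overlap, while those of the other neighbours did. The intervals leave out error in the background. Overlap of intervals is not a test of difference, and no pair was tested. A fold in 1 profile is not on the same scale as a fold in the other, so positions in the list are compared. The TEAD region of TEAD4 was in the top 1.30% of its list and the H3K27ac region around it in the top 8.99% of its own. The values were 2.33% and 0.66% for TEAD1, 6.85% and 27.6% for VGLL4, 16.4% and 0.02% for YAP1, 73.7% and 1.00% for WWTR1, and 96.6% and 18.3% for TEAD3.

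The 7 TEAD summits in start regions lay 156 to 848 bp from the summit of the H3K27ac region that held them. The distances were 156 bp at WWTR1, 161 bp at TEAD1, 188 bp at VGLL4, 269 bp at TEAD4, 370 bp at TEAD3, and 564 and 848 bp at YAP1. Over all TEAD summits inside an H3K27ac region the median distance was 400 bp, with quartiles of 252 and 692 bp. In regions at least 1896 bp wide it was 517 bp, with quartiles of 336 and 1057 bp. TEAD lay downstream of the H3K27ac summit at TEAD3, TEAD4, WWTR1 and the second YAP1 region, and upstream of it at TEAD1, VGLL4 and the first YAP1 region, so no side was shared. All 7 TEAD regions lay wholly inside their H3K27ac region.

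**Figure D3:**
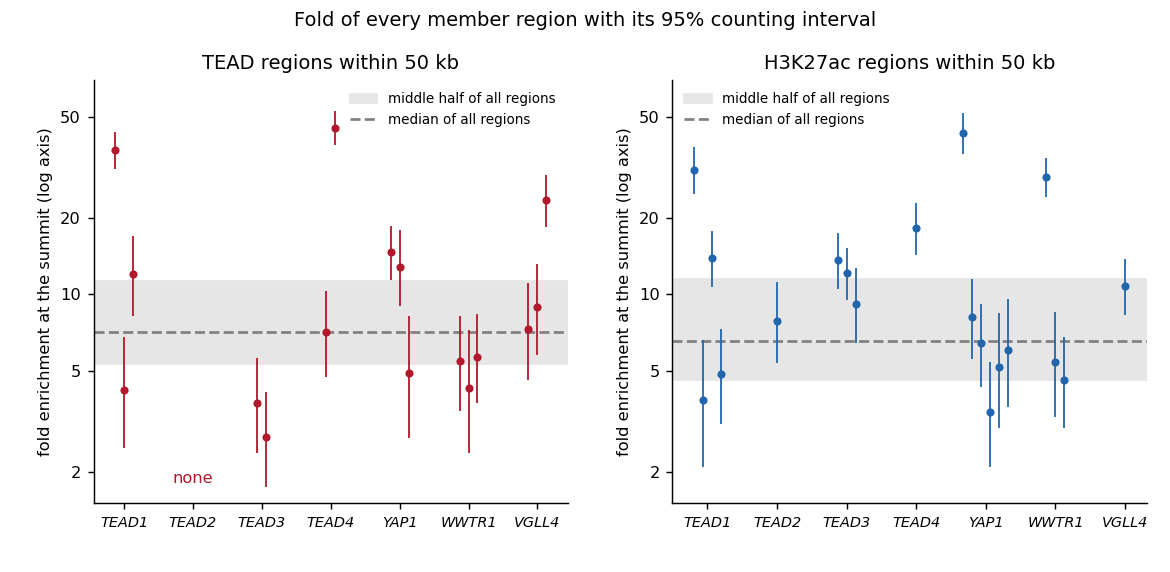
Fold enrichment (log axis) of each TEAD region (left panel) and each H3K27ac region (right panel) within 50 kb, by gene and in the order of position along the gene, with 95% counting intervals as bars. The dashed line and grey band are the median and the interquartile range of the whole list. The points above the band are mostly start regions: up to 45.4 for TEAD at TEAD4 and 43.2 for H3K27ac at YAP1.

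Away from the starts most members had lower folds. The 9 TEAD regions outside start regions had a median fold of 5.69 and a highest fold of 12.0, against a median of 14.6 for the 7 inside. Those inside had folds as low as 3.72, so the 2 sets overlapped. Acetylation was called at 5 of the 9, beside 68.4% of all TEAD regions. The 7 set aside were acetylated by definition, so the split itself lowers the share among the 9. The 13 other H3K27ac regions had a median fold of 6.04, against 23.6 for the 6 over starts, all of which held TEAD. Over all H3K27ac regions the median fold was 6.54, and over those at least 1896 bp wide it was 14.2. Width thus differs along with position here: the median width was 852 bp for the 13 and 3134.5 bp for the 6. With those 6 set aside, 4 of the 13 held TEAD, beside 41.7% of the whole list, from which no regions were set aside. These 4 lay downstream of the listed starts: 18648 bp at TEAD1, 28384 bp at TEAD3, 27818 bp at YAP1 and 37191 bp at WWTR1. The 2 H3K27ac regions of at least 10-fold away from a start, 13.9 at TEAD1 and 12.1 at TEAD3, were among these 4. Their TEAD regions had folds of 4.20 and 2.74, so neither was a strong TEAD site.

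Over all 7 loci the members were close to the whole lists. Acetylation was called at 12 of the 16 TEAD regions, 75.0% (95% Wilson interval 50.5 to 89.8%), beside the 68.4% of the whole list. A fold of at least 10 was reached by 6 of the 16 TEAD regions, beside 30.4% of all. Of the 19 H3K27ac regions 10 held TEAD, 52.6% (31.7 to 72.7%), beside the 41.7% of the whole list given above, and 8 reached 10-fold, beside 30.5% of all. The median TEAD fold was 7.18 for members and 7.14 for the list, and the median H3K27ac fold 8.11 for members and 6.54 for the list. All whole-list shares lie inside the members' intervals, and regions of 1 locus share their chromatin, so no share of the set stood apart from its list beyond counting error. What varied was the locus: 0 to 3 TEAD regions and 1 to 6 H3K27ac regions per gene. Around an H3K27ac summit anywhere in the genome there was a median of 3 TEAD summits (quartiles 2 and 5) and 6 H3K27ac summits (3 and 10, itself included) within 50 kb, and no locus exceeded either median.

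The H3K27ac members summed to between 0.98% of the 100 kb at TEAD2 and 9.72% at TEAD1. The values between were 3.12% at VGLL4, 3.15% at TEAD4, 4.78% at WWTR1, 5.30% at TEAD3 and 7.74% at YAP1. Counting also the parts of regions that reach into the window with their summit outside it, WWTR1 had 8.18% and TEAD1 10.7%. When H3K27ac regions closer than 12.5 kb were joined into domains and ranked by summed fold times width, TEAD1 lay in a domain of 23.7 kb ranked 808 of 22587, among the 863 that pass the rank-curve limit for large domains. The YAP1 domain, of 11.1 kb with 4 H3K27ac regions, ranked 866 and fell just outside. The others were single regions ranked 2569 (WWTR1), 4399 (TEAD4), 7606 (VGLL4) and 9342 (TEAD3). The TEAD1 and YAP1 domains each held 2 TEAD regions.

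Recovered background, the caller's estimate of reads expected at a summit, differed between members and bears on their folds. It ran from 1.59 to 7.02 reads at the 16 TEAD summits, with a median of 2.81 against 2.45 for the list. At TEAD3 and WWTR1 the start summits had the same 21 TEAD reads, and their folds of 3.72 and 5.47 followed backgrounds of 4.91 and 3.02. The pileups of TEAD4 (173) and TEAD1 (140) stood far above theirs on backgrounds of 2.83 and 2.81. Within 5 Mb of each start the median background at TEAD regions ran from 2.10 (TEAD2, YAP1) to 2.83 (WWTR1), and it was 2.81 around VGLL4. VGLL4 lies on the short arm of chromosome 3, the arm most often lost in clear cell renal carcinoma, and WWTR1 on the long arm. DNA copy number was not measured, and its part in these values was not tested.

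**Figure D4:**
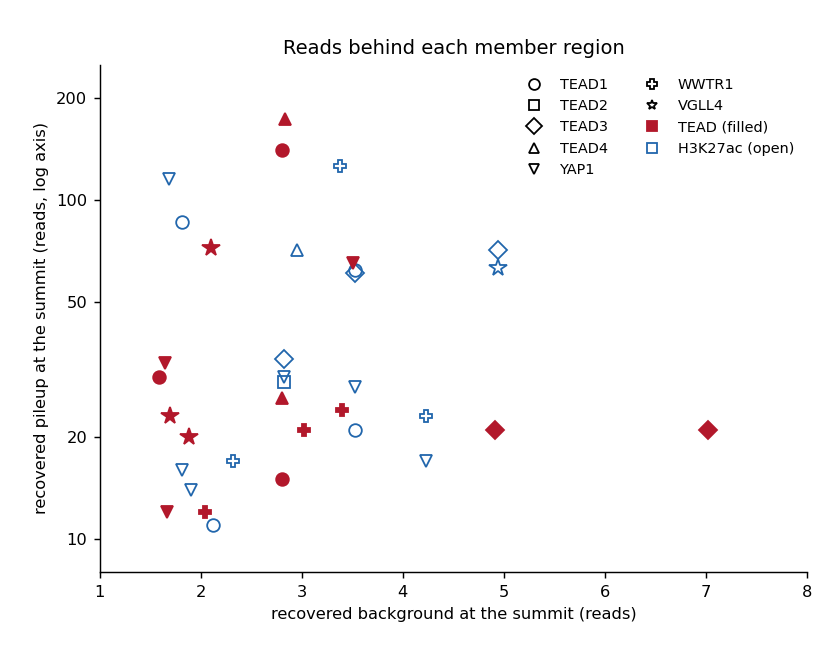
Reads at the summit (y axis, log scale) against recovered background (x axis, reads) for the 16 TEAD members (filled red) and 19 H3K27ac members (open blue), with a symbol for each gene. The start regions of TEAD4 and TEAD1 lead the TEAD points at 173 and 140 reads, and the 2 TEAD3 points share 21 reads at the highest backgrounds of the TEAD set, 4.91 and 7.02.

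The 50 kb limit fell between close neighbours in several places. Just inside it were the TEAD regions of VGLL4 at 49937 bp (7.27-fold) and of TEAD1 at 49554 bp (12.0-fold). Just outside were a TEAD region of WWTR1 at 50217 bp (4.63-fold) and H3K27ac regions at 50509 bp for TEAD1 (12.1-fold) and 50537 bp for WWTR1 (16.3-fold). A single start was used per gene, and the 5 RefSeq promoter windows of VGLL4 and the 2 of WWTR1 show that other starts exist. Exons and introns were not assigned, since no annotation in hg19 was used here. The same holds for chromatin at other genes of the pathway and at renal and other cell type markers, which were not analysed here.

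Sequence could be compared for the wider pathway. Of 20 Hippo genes fixed as a list (upstream kinases and adaptors, VGLL1 to VGLL3 and known TEAD targets) 18 had promoter windows, 24 in all, and 7 of the 24 held the TEAD core, beside 14.0% of all windows and 1 of the 11 member windows. STK3 and CCN1 are named only. The 7 genes with the core were AJUBA, AMOTL2, ANKRD1, AXL, CCN2, LATS2 and VGLL1. ANKRD1 and CCN2 are textbook YAP-TEAD targets, and LATS2 is the kinase that phosphorylates YAP in the pathway's negative feedback. Among the 5 member genes with a window YAP1 was the sole gene with the core, and the promoters of TEAD1 and TEAD4 were not analysed here. This count rests on letters only and says nothing of TEAD occupancy at these genes.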

How the data were processed

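ChIP-seq was available for 3 libraries of 786-O cells, and the peak lists of the TEAD and H3K27ac libraries were used. Input reads were not used here, and total reads per library are unknown. Reads were handled with fastp, Bowtie2 2.4.5 and MACS2 in the hg19 build, per the submitters' processing notes, which give no parameters. For each peak the authors deposited a fold ratio at the summit, a −log10 p and −log10 q and a whole-number score, which was not used. The lowest −log10 q was 2.03 for TEAD and 2.05 for H3K27ac. Only chromosomes 1 to 22 and X were analysed, and coordinates count from 1.

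Pileup k and background b were recovered as the whole-number k for which (k + 1)/(b + 1) is the fold and the Poisson upper tail above k at mean b is p, within 0.002 of the −log10 p. This held for 100% of regions in both lists, and the step was tested on simulated data. The median summit pileup was 24 reads for TEAD and for H3K27ac. Poisson (exact) and Wilson intervals, at 95%, cover counting error only. The fold intervals hold the recovered background fixed, so they leave out its error and are too narrow by that amount.

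The members and lists were chosen with earlier results of these data known. By rule, every gene is described, with its strongest and nearest regions in full. Overlap means at least 1 shared bp. Strand came from RefSeq's promoter table, and from general knowledge for TEAD1 and TEAD4. Alternatives were windows of 25 and 100 kb, stricter thresholds and other overlap rules. Computation used Python 3.11.15, pandas 2.3.3, numpy 2.4.6 and scipy 1.17.1. Domain ranking followed the slope of the scaled rank curve.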

Additional observations from a re-analysis of the deposited data

How the results depend on the processing

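Of 28 alternatives 23 left the values within 1.5 times the reported count or inside the reported interval. The 5 others changed the window. With 25 kb there were 9 TEAD and 12 H3K27ac regions, and with 100 kb 42 and 63, in place of 16 and 19. The TEAD region of highest fold was the reported one at 6 of 6 loci by pileup minus background, at 5 within 25 kb and at 3 within 100 kb. The 3 that changed at 100 kb were TEAD3 (7.28-fold), YAP1 (28.0) and WWTR1 (10.9). The share of TEAD regions with acetylation ran from 63.6 to 88.9% over its alternatives, and that of H3K27ac regions with TEAD from 33.3 to 58.3%. The 6 acetylated starts stood under both stricter thresholds, a fold or a −log10 q of at least 5. Their lowest fold was 10.8 and their lowest −log10 q 44.1, so neither threshold could remove a start. Both alternatives are counted among the 23. No paired analysis was possible because each group had 1 library. Regions under the caller's threshold were not listed, so absence at this depth is not shown, and spread between cultures is unknown.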

Other observations

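Between 50 and 100 kb from the starts lay 26 further TEAD regions that belong to no count above, of which 20 were acetylated, beside 68.4% of all TEAD regions. TEAD2 gained 2 TEAD regions, both acetylated. The stronger, 80618 bp upstream from 49945785 to 49946804 on chromosome 19, had 73 reads and a fold of 29.5 (23.2 to 37.0). YAP1 gained a TEAD region 99205 bp upstream, from 101881629 to 101882326 on chromosome 11, with 86 reads and a fold of 28.0 (22.5 to 34.5). It overlapped no H3K27ac region and was stronger than either TEAD region at the YAP1 start. WWTR1 gained the most, 8 TEAD regions, all of them acetylated, with folds of 4.55 to 10.9, and 17 H3K27ac regions with folds of 2.53 to 21.9. VGLL4 gained 2 TEAD regions of 3.99- and 4.23-fold, both acetylated. Both overlapped 1 H3K27ac region, 77437 bp downstream, with 101 reads and a fold of 25.8 (21.1 to 31.3). That fold was above the 10.8 of the H3K27ac region at the listed VGLL4 start. The first 2 RefSeq windows of VGLL4 begin at 11720490 and 11643866 in GRCh38. They are about as far apart as this H3K27ac region is from the listed start, so it may hold a second VGLL4 start. The windows were not converted to hg19, and this was not tested. The strong TEAD and lower acetylation described for VGLL4 thus apply to the listed start only. Of the regions gained, 1 of 4 was acetylated at TEAD1, 3 of 5 at TEAD4, 3 of 3 at TEAD3 and 1 of 2 at YAP1. Which gene any of these regions serves was not tested.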
